A study of Mus musculus with 3 samples.

Results

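Ms4a4c, Ms4a6b, Ms4a6c, Ms4a6d and Ms4a7 belong to the Ms4a gene cluster on chromosome 19, and their occupancy by RNA polymerase II (Pol_II) was read from chromatin immunoprecipitation and sequencing (ChIP-Seq) of mouse macrophages. They were taken by symbol from the GENCODE M1 annotation of mm9 and are 5 of the 17 genes that it names Ms4a, among 22350 protein-coding genes on chromosomes 1 to 19 and X. The cells were bone marrow-derived macrophages of female Fvb mice (Fvb/Hsd in the study's methods), grown in L929-conditioned medium to day 7 of differentiation. One ChIP-Seq library came from untreated cells and another from cells given lipopolysaccharide (LPS, 10 ng/ml) for 2 h, both with antibody ab5131 against Pol_II phosphorylated at Ser5 of its C-terminal repeat, and the control was input DNA of untreated cells, with no antibody and no LPS. There was 1 library in each group and the labels do not say how many animals stood behind it, so differences between the conditions are given as values without a replicate check or a test, and every interval covers counting error only. The cells were analysed in bulk, so more cells with Pol_II on a gene and more Pol_II per cell cannot be told apart.

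Ms4a genes encode small proteins that cross the membrane several times, and they lie next to each other in a cluster that grew by gene duplication. The best known are Ms4a1, which encodes the B cell antigen CD20, and Ms4a2, which encodes the beta chain of the high-affinity IgE receptor of mast cells and basophils. Ms4a4c, Ms4a6b, Ms4a6c, Ms4a6d and Ms4a7 are known from blood and immune cells, Ms4a7 chiefly from macrophages. Ser5 phosphorylation accompanies the start of transcription and the phosphorylated enzyme is also found along transcribed genes, so that Ser5 tags at a start and over a gene body mark Pol_II engaged there.

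The libraries held 7616771 tags for Ser5 of untreated cells, 6249819 after LPS and 7533308 for input. Tags were 45 bases long in the untreated library, 30 in the LPS library and 36 in the input. The study's supplementary methods state the lengths of the Ser5 libraries the other way round. A level is given as TPM per kb, where TPM counts tags, not transcripts, for each 1000000 tags of the library. Of 10 macrophage genes, 9 exceeded the input at least 2-fold in each Ser5 library, whereas 1 of 7 B cell genes did so in untreated cells and 0 after LPS, and 0 of 6 mast cell genes and 0 of 5 fibroblast genes did so in either. In T cell genes the count was 2 of 7 in each library, and it was 1 and 2 of 6 for neutrophil genes and 0 and 1 of 4 for dendritic cell genes. No gene of these lists was without tags, and the summed level of the B cell list was 0.208 in untreated cells, 0.166 after LPS and 0.417 in input, and that of the macrophage list 6.29, 6.99 and 0.760. After LPS, 2 of the macrophage genes stood at least 2 times higher and 4 at least 2 times lower, among them Csf1r, the receptor for the growth factor of these cells, at 0.449 times. All 10 genes of a list of LPS response genes, such as Ccl5 and Tnf, were at least 2 times higher after LPS, with ratios between 6.17 at Nfkbia and 396 at Ccl5.

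The sequences just upstream of the starts are shown because 3 members carried the same short element there, and because a pair of these promoters shares a paralogous block. RefSeq (GRCm38.p6) held promoter entries for 4 of the 5 members, and Ms4a6d had no entry. The 250 bases before each start matched mm9 exactly at 1 place, chr19:11410637-11410886 on the minus strand for Ms4a7 and, on the plus strand, chr19:11481901-11482150 for Ms4a4c, chr19:11543608-11543857 for Ms4a6c and chr19:11592799-11593048 for Ms4a6b. Capitals mark the motifs found, which are the core of the interferon-stimulated response element in Ms4a7, Ms4a6c and Ms4a6b and the core of a PU.1 site in Ms4a4c.
Ms4a7: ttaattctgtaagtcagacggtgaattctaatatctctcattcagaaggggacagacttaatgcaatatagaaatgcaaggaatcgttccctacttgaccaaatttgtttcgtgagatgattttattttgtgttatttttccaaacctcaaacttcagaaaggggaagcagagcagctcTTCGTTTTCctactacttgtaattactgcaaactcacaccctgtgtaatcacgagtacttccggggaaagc
Ms4a6c: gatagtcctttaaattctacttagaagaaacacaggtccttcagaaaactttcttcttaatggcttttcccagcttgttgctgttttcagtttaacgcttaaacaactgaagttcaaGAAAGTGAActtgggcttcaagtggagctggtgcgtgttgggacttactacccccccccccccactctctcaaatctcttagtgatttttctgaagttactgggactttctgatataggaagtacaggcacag
Ms4a6b: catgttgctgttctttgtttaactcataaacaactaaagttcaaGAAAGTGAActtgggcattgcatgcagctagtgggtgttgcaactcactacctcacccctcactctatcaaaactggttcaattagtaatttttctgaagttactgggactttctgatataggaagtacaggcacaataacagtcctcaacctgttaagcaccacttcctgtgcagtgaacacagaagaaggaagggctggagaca
Ms4a4c: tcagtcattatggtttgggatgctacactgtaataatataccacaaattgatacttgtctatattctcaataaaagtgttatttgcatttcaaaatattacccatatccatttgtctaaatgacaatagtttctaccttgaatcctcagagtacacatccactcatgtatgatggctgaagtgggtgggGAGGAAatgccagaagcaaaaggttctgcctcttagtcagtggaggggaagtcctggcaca

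The core of the interferon-stimulated response element, the sequence read by IRF and STAT factors, was searched as GAAANNGAA on both strands. It stood in the promoters of 3 of the 4 members and in 7.13% of the 32851 RefSeq promoters cut to the same length. In Ms4a6c it began at position -133 from the start, in Ms4a6b at -206 and in Ms4a7 at -71, there on the opposite strand. The PU.1 core GAGGAA, bound by the Ets factor that macrophages depend on, stood only in Ms4a4c among these 4 members, at -61, against 23.3% of all promoters. A second RefSeq start of Ms4a7, 1451 bp inside the gene, had the response element core at -148 and the AP-1 motif TGANTCA at -81, a motif held by 6.75% of promoters. TATAAA, the STAT motif TTCNNNGAA, the C/EBP motif TTGCNNAAT and the NF-kB consensus were each in 0 of the 4 members, against 12.4%, 7.02%, 2.11% and 3.90% of all promoters. None of the motifs found in the 4 members overlapped another, and a match in these letters is not a measured binding site. For Ms4a4c and Ms4a6b the promoters searched were those of RefSeq starts 2891 and 2047 bp inside the gene records. The sequences before the starts of these records were not searched, although the only Ser5 peak of Ms4a4c lay over the start of its record.

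The promoters of Ms4a6c and Ms4a6b were paralogous. Their best local alignment joined bases -175 to -2 of Ms4a6c with bases -248 to -71 of Ms4a6b and held 152 identical bases in 182 columns, or 83.5%. The response element core lies inside this block in both genes, so the 2 occurrences are copies of one sequence and do not count as separate. The other pairs of promoters aligned over shorter or less alike stretches, the longest being 104 identical bases in 183 columns between Ms4a7 and Ms4a6c.

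Ser5 over the gene body was higher after LPS at all 5 members, by 2.01 to 4.57 times. Ms4a7, Ms4a6c and Ms4a6d had the most Ser5, at 3.22 to 4.57 times the untreated level, Ms4a6b had an intermediate level and the smallest ratio, and Ms4a4c had the lowest level in both libraries. At least 2 times higher was the call for 5 of 5 members, against 5.83% of the 17386 coding genes with at least 10 Ser5 tags, and at least 2 times lower for 0 of 5, against 11.3%. The median ratio was 3.98 over the members and 0.874 over these genes. At the 5 members the ratio lay above that of 94.2% to 98.9% of the genes, and below that of each of the 10 LPS response genes. With the scaled input subtracted first, Ms4a6c at 7.03 and Ms4a6d at 6.55 lay above Nfkbia at 6.35. The members were chosen with earlier results of these data known, so the shares beside them describe and do not test. Of the 12 other Ms4a genes, 2 were at least 2 times higher.

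**Figure D1:**
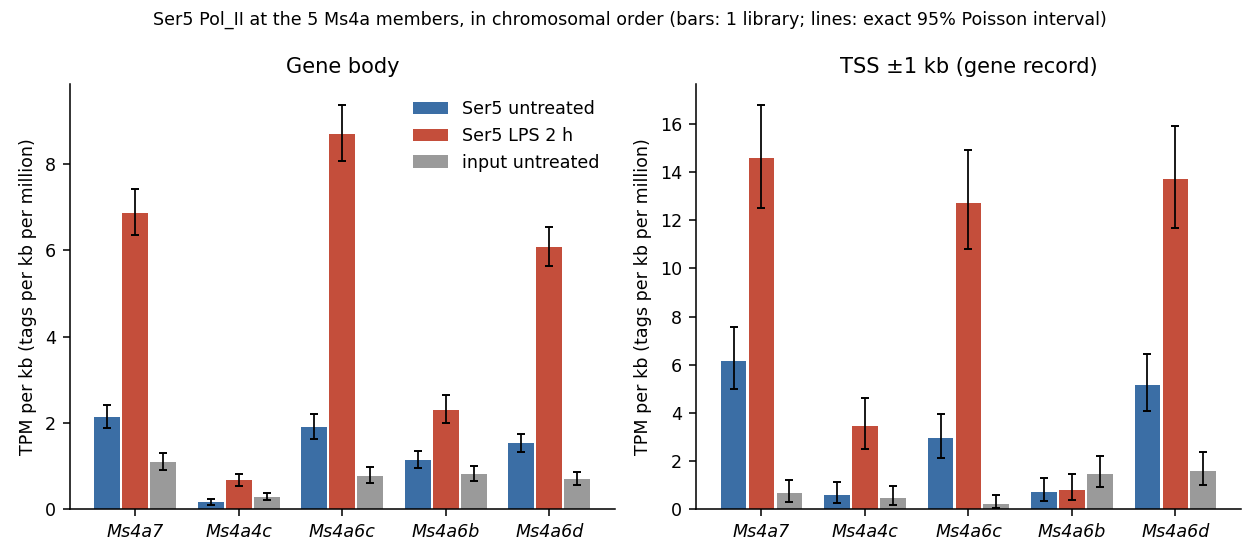
TPM per kb over the gene body (left) and within 1 kb of the annotated start (right) for the 5 members, with untreated Ser5 in blue, Ser5 after LPS in red and input in grey; bars are single libraries and lines exact 95% Poisson intervals. Over the gene body the LPS bar is above the untreated bar at every member, from 0.669 against 0.158 at Ms4a4c to 8.70 against 1.90 at Ms4a6c, whereas at the annotated start of Ms4a6b the bars are at 0.800 and 0.722.

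Ms4a6c (chr19:11543858-11556687, plus strand, 12830 bp) had the largest ratio of the members. It held 186 Ser5 tags in untreated cells, 698 after LPS and 75 in input, or 1.90 (exact Poisson interval 1.64 to 2.20), 8.70 (8.07 to 9.38) and 0.776 (0.610 to 0.973) TPM per kb. The level after LPS was 4.57 times that before (exact conditional interval 3.89 to 5.41), a ratio above that of 98.9% of the 17386 coding genes. Untreated cells already stood 2.45 times (1.87 to 3.25) over the input, and LPS-treated cells 11.2 times (8.83 to 14.4).

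Ms4a6d (chr19:11661094-11679339, minus strand, 18246 bp) had 212 tags in untreated cells, 693 after LPS and 97 in input. The levels were 1.53 (1.33 to 1.75), 6.08 (5.63 to 6.55) and 0.706 (0.572 to 0.861), a 3.98-fold difference between LPS and untreated (3.41 to 4.67). The untreated level was 2.16 times the input (1.69 to 2.78) and the LPS level 8.61 times (6.95 to 10.8). It was therefore occupied before LPS and more so after.

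Ms4a7 (chr19:11395529-11410636, minus strand, 15108 bp) had the highest level of the members in untreated cells. It held 246, 650 and 124 tags in untreated, LPS and input libraries, which gives 2.14 (1.88 to 2.42), 6.88 (6.36 to 7.43) and 1.09 (0.906 to 1.30). LPS stood to untreated as 3.22 to 1 (interval 2.78 to 3.74). Against input the untreated level was 1.96 times (1.57 to 2.45), on the border of the 2-fold rule, and the LPS level 6.32 times (5.21 to 7.72).

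Ms4a6b (chr19:11591002-11605746, plus strand, 14745 bp) was the member with the smallest change. Its 129 tags in untreated cells, 213 after LPS and 90 in input gave 1.15 (0.959 to 1.36), 2.31 (2.01 to 2.64) and 0.810 (0.652 to 0.996). The ratio of 2.01 (1.61 to 2.52) sat on the 2-fold rule, and its interval did not overlap that of the same ratio at Ms4a7, Ms4a6d, Ms4a6c or Ms4a4c. With the scaled input subtracted first the ratio was 4.44. The untreated level was 1.42 times the input (1.07 to 1.88), and the LPS level 2.85 times (2.22 to 3.69).

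Ms4a4c (chr19:11479260-11501736, plus strand, 22477 bp) had few tags, 27 in untreated cells, 94 after LPS and 47 in input. Its levels of 0.158 (0.104 to 0.229), 0.669 (0.541 to 0.819) and 0.278 (0.204 to 0.369) were the lowest of the members. Between LPS and untreated the ratio was 4.24 (2.74 to 6.77), so that its wide interval took in the ratios of Ms4a7, Ms4a6d and Ms4a6c. The untreated level was under the input, at 0.568 times (0.340 to 0.931), and the LPS level above it, at 2.41 times (1.68 to 3.50). Engaged Pol_II over the whole gene was thus not detectable above input in untreated cells at this depth.

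Read against the input, 2 of 5 members were at least 2-fold enriched in untreated cells and 5 of 5 after LPS, compared with 37.6% and 32.9% of coding genes. A change of scale moves these values. Input had 95.5% of its tags outside the deposited peaks of the Ser5 libraries, untreated Ser5 had 50.2% and LPS Ser5 46.7%. With the libraries scaled to those tags, every ratio of untreated Ser5 to input was 1.90 times as large, which put Ms4a7 at 3.73, Ms4a6b at 2.70 and Ms4a4c at 1.08. The ratios of LPS to untreated were 1.08 times as large.

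In order of level after LPS, Ms4a6c was followed by Ms4a7, Ms4a6d, Ms4a6b and Ms4a4c, and only Ms4a7 and Ms4a6d did not differ beyond their intervals. In untreated cells the order was Ms4a7, Ms4a6c, Ms4a6d, Ms4a6b and Ms4a4c, where the intervals of each neighbouring pair overlapped except that of Ms4a6b and Ms4a4c. Repeated sequence weighs on this order, since only uniquely placed tags were kept. A 30-base sequence that occurs elsewhere in the genome began at 38.3% of the positions of Ms4a6d, 36.3% of Ms4a4c, 14.1% of Ms4a6c, 9.98% of Ms4a6b and 5.39% of Ms4a7. Per kb of unique positions, Ms4a6d after LPS reached 9.85 (9.13 to 10.6), next to Ms4a6c at 10.1 (9.40 to 10.9) and above Ms4a7 at 7.28 (6.73 to 7.86), while Ms4a4c remained lowest at 1.05 (0.848 to 1.28). In untreated cells Ms4a6d, Ms4a7 and Ms4a6c then had 2.41, 2.24 and 2.20 with overlapping intervals. Tags at positions whose 30 bases are unique made up nearly all of those counted, 207 of 212 untreated tags at Ms4a6d being the largest loss, so the ratios of LPS to untreated were the same within their intervals.

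**Figure D2:**
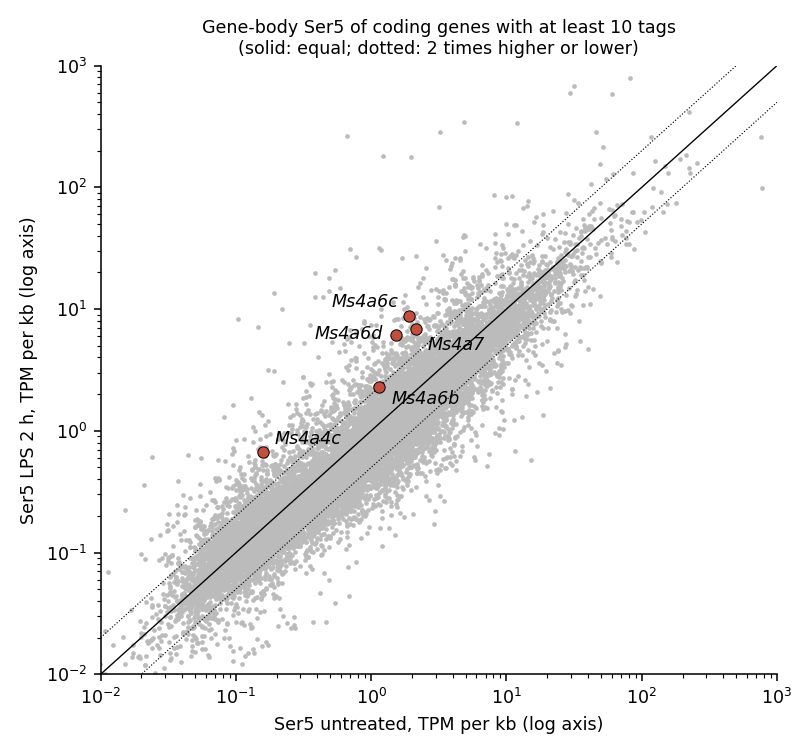
Gene-body level in untreated cells (horizontal, log axis) against that after LPS (vertical, log axis), in TPM per kb, for 17374 coding genes with tags in both libraries in grey, of which 20 lie outside the axes, and the 5 members in red. The members lie on or above the upper dotted line of 2 times higher, Ms4a6b on it at 1.15 and 2.31, and Ms4a4c at the low end at 0.158 and 0.669.

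At the transcription start sites (TSS ±1 kb) LPS was at least 2 times higher at 4 of 5 members and at least 2 times lower at 0 of 5, against 5.58% and 14.1% of 12535 coding genes. At the start of Ms4a7 lay 94 untreated, 182 LPS and 10 input tags, a ratio of LPS to untreated of 2.36 (1.83 to 3.06). Ms4a6d had 79, 171 and 24, a ratio of 2.64 (2.01 to 3.49). Both starts were thus already loaded, at 9.30 times (4.84 to 20.0) and 3.26 times (2.04 to 5.38) the input in untreated cells. Ms4a6c had 45, 159 and 3, a ratio of 4.31 (3.08 to 6.14). Its start was loaded before LPS too, at 14.8 times the input (4.76 to 74.6), on 3 input tags. Ms4a4c had 9, 43 and 7, a ratio of 5.82 (2.80 to 13.6), and its start stood at 7.40 times the input after LPS (3.30 to 19.5), compared with 1.88 times (1.27 to 2.79) for the body after the first kb.

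Ms4a6b differed with the start chosen. Around the start of the gene record there were 11 tags in untreated cells, 10 after LPS and 22 in input, so that Ser5 was not above input in either library and LPS over untreated gave 1.11 (0.422 to 2.87). This value changed with the window, to 2.44 (0.349 to 26.9) at 500 bp on each side and 2.02 (1.25 to 3.32) at 2 kb. With tags moved 75 bp downstream it was 2.19 (0.960 to 5.32). Each was above 2, but the intervals at 500 bp and with moved tags took in 1. The window of 500 bp held fewer than the 10 Ser5 tags that the 2-fold rule asks for. Around a coding transcript start 2047 bp further in, the start that RefSeq uses and whose promoter is printed above, there were 25, 55 and 14 tags, and the ratio was 2.68 (1.64 to 4.49). The 500-bp bin that holds that start had 2.10 TPM per kb in untreated cells and 1.92 after LPS. The highest bin of the gene in both Ser5 libraries, at 3.68 and 7.68, began 1000 bp inside the record. At Ms4a4c the RefSeq start, 2891 bp inside the gene record, had 3, 21 and 7 tags, fewer than the start of the record, with a ratio of 8.53 (2.55 to 44.7).

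**Figure D3:**
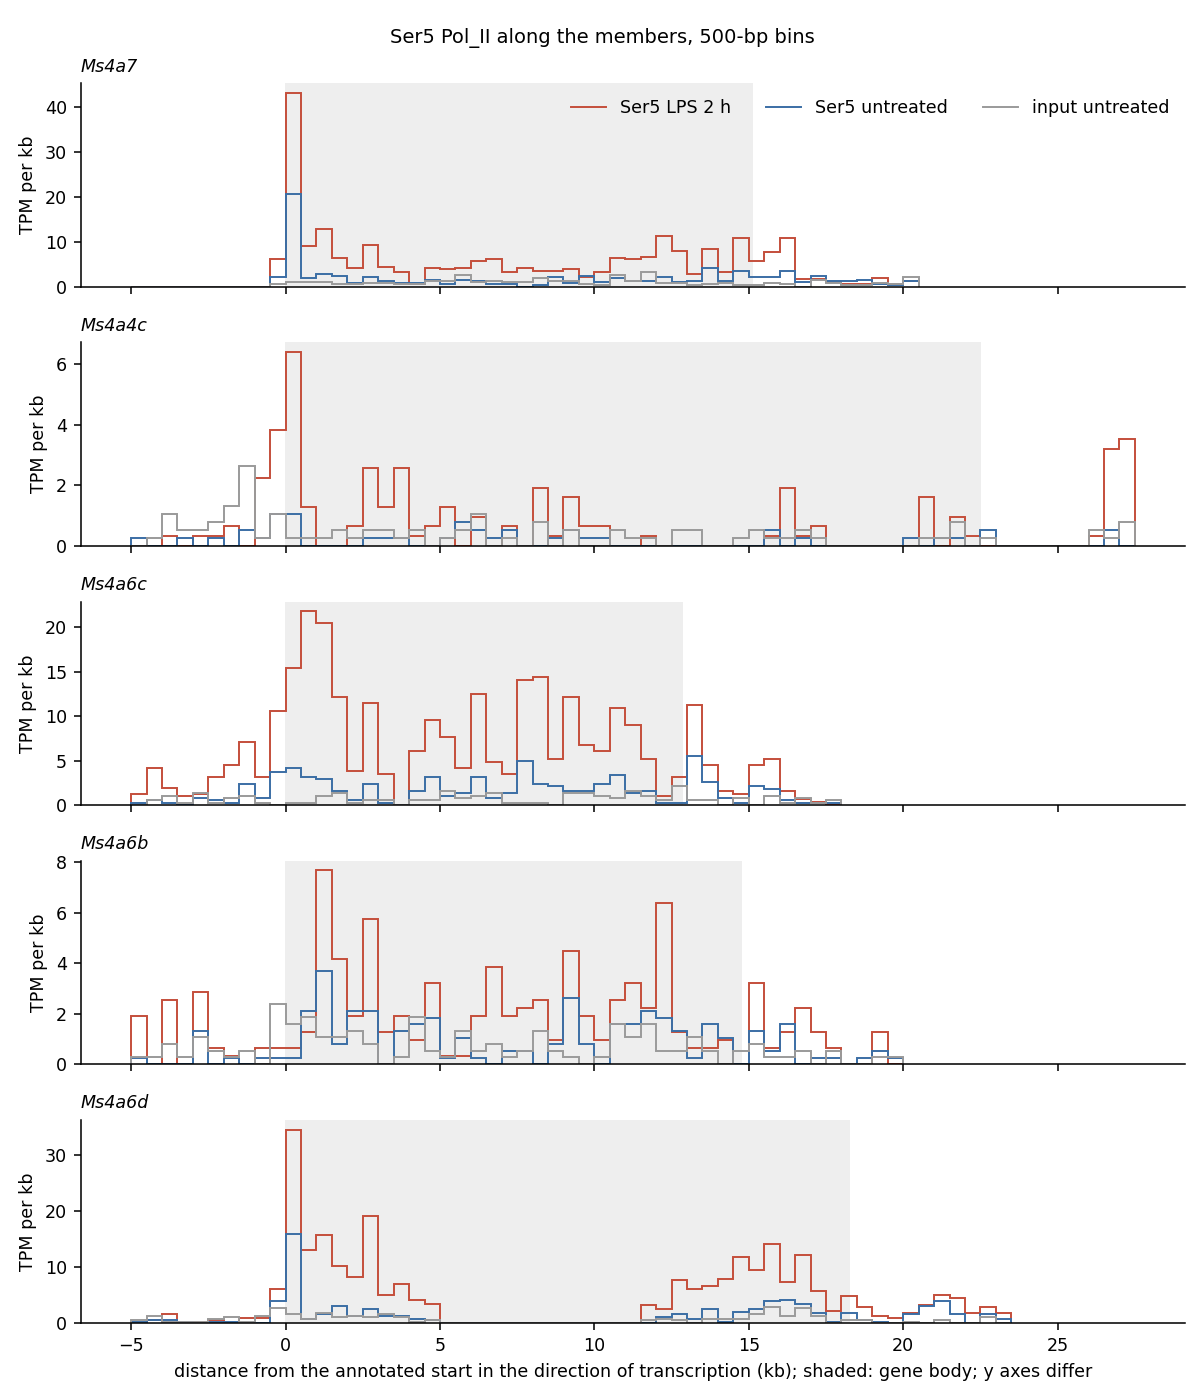
TPM per kb in 500-bp bins (vertical, axes differ between panels) by distance from the start of the gene record in the direction of transcription (horizontal, kb) for the 5 members, with untreated Ser5 in blue, Ser5 after LPS in red, input in grey and the gene body shaded. Ms4a7 and Ms4a6d have a sharp bin at the start in both Ser5 libraries, reaching 43.2 and 34.6 after LPS, Ms4a6c is broad, Ms4a6b is highest from 1000 bp inside the gene at 7.68, and the middle of Ms4a6d is nearly empty in all libraries.

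Along the genes, 2 shapes were seen. Ms4a7 and Ms4a6d were focused at the start, with 86 of 246 and 64 of 212 untreated gene-body tags in the first kb, and 163 of 650 and 149 of 693 after LPS. The remainder of Ms4a7 held 160 and 487 tags, so that the ratio of LPS to untreated was 1.61 times larger past the first kb than within it (exact conditional interval 1.15 to 2.23). The remainder of Ms4a6d held 148 and 544, and the ratio was 1.58 times larger (1.10 to 2.26). Ser5 in these genes was therefore higher after LPS by more over the body than at the start. With 1 tag kept per position and strand the value for Ms4a7 was 1.45 (0.998 to 2.10), which takes in 1.

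Ms4a6c was spread over its length in both conditions, with 15.1% of the tags in the first kb in untreated cells and 16.6% after LPS. Its first kb had 28 and 116 tags and the remainder 158 and 582, and the ratio of these ratios was 0.889 (0.546 to 1.41). For Ms4a6b and Ms4a4c the counts in the first kb were too small to place, with 2.59 (0.798 to 9.04) and 0.507 (0.116 to 1.71). In all, 3 of 5 members had a ratio at least 1.5 times larger past the first kb than within it, against 19.4% of 10331 coding genes of at least 3 kb, and Ms4a6b is the 1 of them whose interval takes in 1. The count was 2 of 5 with tags moved 75 bp downstream, where Ms4a6b had 1.07, and 2 of 5 with 1 tag kept per position and strand, where Ms4a7 had 1.45. The median over these genes was 1.03.

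Cut into 4 equal lengths in the direction of transcription, Ms4a6c had ratios of LPS to untreated of 5.73, 4.28, 4.16 and 3.72, and its interval for the first length (4.29 to 7.77) overlapped that of the last (2.57 to 5.49). Ms4a7 had 2.80, 4.15, 3.40 and 3.56, and Ms4a6b 2.06, 2.02, 2.49 and 1.62. All 4 lengths of these 3 genes were higher after LPS, with intervals above 1. In Ms4a4c 53 of the 94 tags after LPS lay in the first length, where the ratio was 6.46 (3.25 to 14.2), and the last 2 lengths held 9 and 11.

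The middle of Ms4a6d held hardly any tags. From chr19:11666801-11675131, a stretch of 8331 bp inside the gene with no peak, there were 6 tags in untreated cells, 34 after LPS and 7 in input, against 206, 659 and 90 in the remaining 9915 bp. Input was sparse there too, at 0.112 TPM per kb against 1.20 in the remainder. Repeated 30-base sequence made up 80.8% of the stretch and 2.60% of the remainder. The tags counted for Ms4a6d therefore came mostly from its ends, and Pol_II over the repeated part of this stretch could not be measured.

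The deposited peaks covered more of the members after LPS. In the gene bodies and the 1 kb upstream, the authors' caller had 7 peaks in untreated cells and 47 after LPS, and all 7 overlapped peaks of the LPS library. A peak was present at 4 of 5 members in untreated cells and at 5 of 5 after LPS, against 54.1% and 51.4% of coding genes. Ms4a6c had 3 and 17 peaks, Ms4a6d 1 and 14, Ms4a7 2 and 11, Ms4a6b 1 and 4, and Ms4a4c 0 and 1. The LPS peaks covered 72.3% of Ms4a6c, 43.1% of Ms4a6d, 39.8% of Ms4a7, 10.3% of Ms4a6b and 1.29% of Ms4a4c. In untreated cells the share was 5.71% at Ms4a6c and lower at the others.

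In both libraries the strongest peaks of Ms4a7 and Ms4a6d lay over the annotated start. At Ms4a7 the untreated peak chr19:11410321-11410730 held 83 untreated tags and 3 input tags, and the LPS peak over the same start was 875 bp long with 170 LPS tags. At Ms4a6d the untreated peak chr19:11679090-11679399 held 70 tags and the LPS peak, 909 bp long, 161. Ms4a6c had an untreated peak of 182 bp over its start and its strongest LPS peak, 1249 bp long, in an intron with 153 LPS tags against 28 in untreated cells. At Ms4a6b no peak lay over the start of the gene record, and the only untreated peak was intronic, centred 983 bp inside. The single peak of Ms4a4c, chr19:11478987-11479548, lay over the outer start and was in the LPS list alone, with 26 LPS tags, 5 untreated tags and 2 input tags.

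Of the 47 LPS peaks at members, 4 lay over a start, 19 over other exons, 23 within introns and 1 upstream. After LPS, Ser5 was also above the input past the ends of the genes. It already was in untreated cells past Ms4a7, Ms4a6d and Ms4a6c, at 2.65, 5.49 and 2.72 times the input. Past Ms4a6b and Ms4a4c the untreated values were 1.62 and 0.565, with intervals that took in 1. In the 5 kb downstream of Ms4a7 there were 59 tags in untreated cells, 91 after LPS and 22 in input, and downstream of Ms4a6d 50, 82 and 9, with ratios of LPS to untreated of 1.88 (1.34 to 2.65) and 2.00 (1.39 to 2.90). Downstream of Ms4a6c there were 55, 100 and 20, a ratio of 2.22 (1.58 to 3.14). In each of these 3 genes the interval downstream lay below that of the gene body, with no allowance for repeated sequence. Downstream of Ms4a6d, repeated sequence began at 41.8% of positions for 30 bases, the LPS tag length, and 20.2% for 45, the untreated length. At Ms4a7 these shares were 21.8% and 9.40%, and at Ms4a6c 12.3% and 5.46%. Whether this lowers the downstream ratios was not tested. Downstream of Ms4a6b there were 18, 33 and 11 tags, a ratio of 2.23 (1.22 to 4.21), and downstream of Ms4a4c 4, 22 and 7, a ratio of 6.70 (2.28 to 26.8), and neither interval was apart from that of its gene body. Upstream of Ms4a6c the 5 kb held 36, 119 and 21 tags, a ratio of 4.03 (2.75 to 6.02). Upstream of Ms4a6d there were 23, 35 and 33 tags, of Ms4a6b 9, 30 and 24, and of Ms4a4c 10, 24 and 32. Ser5 after LPS was 1.28, 1.51 and 0.904 times the input there, with intervals that took in 1. The stretch upstream of Ms4a6b overlaps Gm8369. Upstream of Ms4a7 the 5 kb held 8, 19 and 2 tags, all next to the start, a ratio of 2.89 (1.21 to 7.64). No comparison could be made further out, because chr19:11410779-11416226 had 0 tags in all 3 libraries. This empty stretch begins 143 bp before the start and includes part of the promoter printed above. Repeated 30-base sequence made up 15.4% of it.

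The 12 other Ms4a genes were low in both libraries. Their Ser5 levels ran from 0.0845 to 0.448 in untreated cells, with a median of 0.141, and from 0.0643 to 1.20 after LPS, with a median of 0.185, against 0.431 to 0.953 in input. At least 2-fold over the input were 0 of 12 in either library, although with scaling to tags outside peaks Ms4a4d reached 3.69 after LPS. In the comparison of conditions, LPS was at least 2 times higher at 2 of 12 and at least 2 times lower at 0 of 12. Ms4a4d, between Ms4a6b and Ms4a6d, had 52 tags in untreated cells, 163 after LPS and 109 in input, a ratio of LPS to untreated of 3.82 (2.78 to 5.33), and 3 LPS peaks. Ms4a1, the gene of CD20, had 13, 34 and 115 tags, so that its ratio of 3.19 (1.64 to 6.58) was between levels that were both under the input, and it had no peak.

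**Figure D4:**
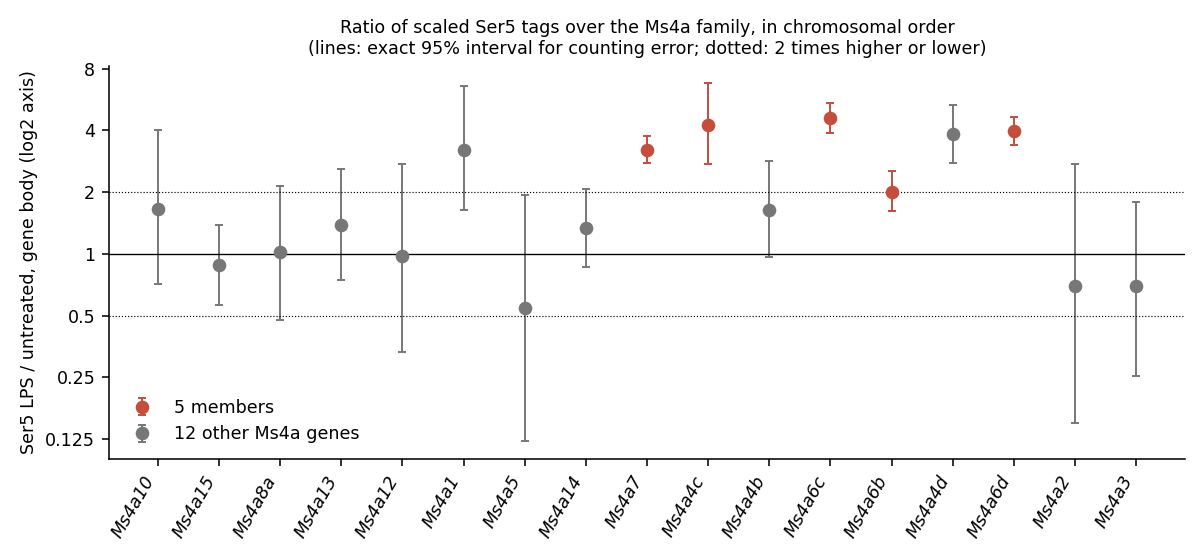
Ratio of LPS to untreated Ser5 over the gene body (vertical, log2 axis) for the 17 Ms4a genes in chromosomal order (horizontal), members in red and the other 12 in grey, with exact 95% intervals for counting error and dotted lines at 2 times higher and lower. The members lie at 2.01 to 4.57 in the stretch from Ms4a7 to Ms4a6d, together with Ms4a4b at 1.64 and Ms4a4d at 3.82, and of the genes outside this stretch only Ms4a1 passes 2, at 3.19.

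The stretch from Ms4a7 to Ms4a6d is bounded by members and holds all 5, so a count over it mostly repeats the members. Outside it, Ms4a1 also passed 2, at 3.19. In the stretch the annotation has 7 Ms4a genes, the 5 members with Ms4a4b and Ms4a4d. Of these, 6 were at least 2 times higher after LPS, against 5.83% of coding genes. Ms4a4b, known from T cells, was the exception, with 26 tags in untreated cells, 35 after LPS and 65 in input and a ratio of 1.64 (0.960 to 2.84), and it had 1 LPS peak. Ms4a15 had a peak in each library, with 51, 37 and 75 tags over the gene and a ratio of 0.884 (0.563 to 1.38). Among the low genes, Ms4a14 had 43, 47 and 80 tags and a ratio of 1.33 (0.862 to 2.06), and Ms4a10 had 11, 15 and 49 and a ratio of 1.66. Ms4a8a had 18, 15 and 72 tags, Ms4a13 22, 25 and 122, and Ms4a12 10, 8 and 61, and the intervals of these 3 ratios and that of Ms4a10 took in 1. So did those of Ms4a5 with 9, 4 and 51 tags, of Ms4a2, the IgE receptor gene, with 7, 4 and 40, and of Ms4a3, known from granulocyte and monocyte precursors, with 14, 8 and 50.

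Genes next to the cluster differed in gene-body level from one side to the other. On the side of Ms4a10, Ccdc86 had 247 tags in untreated cells, 470 after LPS and 57 in input, a ratio of 2.32 (1.98 to 2.72), and Gpr44, a prostaglandin D2 receptor, had 128, 158 and 22, with an interval of the ratio from 1.18 to 1.91. The records of Gpr44 and Ccdc86 overlap by 1031 bp and share tags, and at the start of Gpr44 itself there were 2, 2 and 14 tags, under the input. On the side of Ms4a3, Plac1l with 9, 20 and 55 tags and Oosp1, an oocyte-secreted protein gene, with 9, 3 and 36 were under the input in both libraries. The ratio of LPS to untreated at Plac1l was 2.71 (1.18 to 6.75), between levels that were both under the input.

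The coding genes whose 4 Ser5 levels, at start and body in both libraries, were nearest to a member were searched among 14327 genes. Distances were Euclidean, over log2 of levels plus 0.1. All Ms4a genes, and genes with fewer than 50 Ser5 tags over both libraries, were left out of the search. Nearest to Ms4a7 was Trim21, an antibody receptor and ubiquitin ligase of the cytosol, at 0.352, with 131 untreated and 406 LPS tags. Ms4a6d was nearest to AI607873 at 0.414 and Ms4a6b to Fbxl5, a ubiquitin ligase subunit that senses iron, at 0.238. Nearest to Ms4a6c were AW011738 and Mmp14, a membrane-bound matrix metalloproteinase, both at 0.572, and to Ms4a4c F3, which encodes tissue factor, at 0.550. The second genes were Plekhn1 for Ms4a7 at 0.452, N4bp1 for Ms4a6d at 0.429, Foxp1 for Ms4a6b at 0.382 and Gm9766 for Ms4a4c at 0.616. These are likenesses over 4 values of 2 libraries.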

How the data were processed

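Bowtie was used by the authors to place tags on mm9 (1 position only, up to 2 mismatches), and MACS to call peaks of either Ser5 library over the input at p of 1e-05; versions are not given in the sources used here. The deposited tag files hold the position and strand of each tag, duplicates included, and the deposited peak lists hold a score, minus 10 times log10 of the authors' peak p-value. From these, tags on chromosomes 1 to 19 and X were counted by their 5′ end over GENCODE M1 gene records and within 1 kb of the TSS (Python 3.11.15, numpy 2.4.6, pandas 2.3.3, scipy 1.17.1). Levels carry exact Poisson intervals and ratios exact conditional intervals, both at 95%. With 1 library per group the rule of size was a ratio of 2 with at least 10 Ser5 tags. PCR duplicates are not independent molecules, so intervals cover counting error only. Repeated sequence was found by exact matches of 30, 36 and 45 bases to all 211 sequences of the genome. Promoters were aligned with Biopython 1.88. Counting and intervals were tested on simulated data. Named genes were the members, the other Ms4a genes, the 2 coding genes on each side and the 2 nearest patterns per member. Members and lists were chosen with earlier results of these data known. Alternatives were single tags per position, scaling to tags outside peaks, tags moved 75 bp, unique positions, windows of 500 bp and 2 kb, input subtraction, and stricter peaks.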

Additional observations from a re-analysis of the deposited data

How the results depend on the processing

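With duplicate tags removed, with tags moved 75 bp downstream, with unique positions alone, other start windows, or the gene body without its first kb, no ratio of a member left its interval, although the wide interval at the annotated start of Ms4a6b covers values on both sides of 2. The ratio of LPS to untreated over the gene body stayed between 3.19 and 5.53 at Ms4a7, 3.71 and 4.57 at Ms4a4c, 4.39 and 7.03 at Ms4a6c, 2.01 and 4.44 at Ms4a6b, and 3.82 and 6.55 at Ms4a6d. The upper ends come from subtracting the scaled input first at Ms4a7 (5.53), Ms4a6c (7.03), Ms4a6b (4.44) and Ms4a6d (6.55). This could not be done at Ms4a4c, which was under the input in untreated cells. Scaled to tags outside peaks, untreated Ser5 over input became 1.08 at Ms4a4c, 2.70 at Ms4a6b, 4.66 at Ms4a6c, 4.11 at Ms4a6d and 3.73 at Ms4a7, and LPS over input 4.93, 5.84, 23.0, 17.6 and 12.9. These values move because the Ser5 totals without peaks are smaller. At a peak p of at most 1e-10 the counts for untreated and LPS were 1 and 11 at Ms4a6c, 1 and 7 at Ms4a7 and 0 and 2 at Ms4a6b. With no minimum of tags, 8.80% of coding genes were at least 2 times higher after LPS. The number of members at least 2 times higher was 4 in the window of 1 kb at the annotated start and 5 under the other alternatives for this count. The alternatives for the first kb and the level per unique position were added after seeing the data. No paired analysis was possible because each group has 1 library. Depth limits Ms4a4c most, whose 27 untreated tags leave its level and shape open to a wide interval.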

Other observations

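Outside every coding gene and its 1 kb upstream, the stretch from Ms4a10 to Ms4a3 held 6 Ser5 peaks in untreated cells and 22 after LPS. Of these, 4 and 11 touched the 5 kb downstream of a member and 0 and 2 touched the 5 kb upstream of one, which was Ms4a6c. The peaks downstream of Ms4a6c included chr19:11557173-11557489, 486 bp past the gene, with 18 tags in untreated cells, 30 after LPS and 1 in input. Past Ms4a4c, chr19:11506174-11506409 had 1, 18 and 4 tags, 4438 bp from the end of the gene. The 2 LPS peaks upstream of Ms4a6c, chr19:11538631-11538887 and chr19:11539637-11539909, lay nearer to Ms4a4b, 592 and 1598 bp past its end. They had 13 and 17 LPS tags with 0 and 2 in untreated cells and 0 and 2 in input.

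AW112010 and Gm8369, coding gene records inside the cluster chosen here after their values were seen, had larger ratios than any member. The other coding records there that are not Ms4a genes did not. Their ratios were 1.52 at 1700017D01Rik, 0.443 at 1700025F22Rik and, on few tags, 0.609 at Gm10212, and Gm336 had no tags over its body. AW112010, between Ms4a15 and Ms4a8a, had 11 tags in untreated cells, 331 after LPS and 23 in input, a ratio of LPS to untreated of 36.7 (20.2 to 74.2). The strongest intergenic peak of the cluster, chr19:11119313-11120825, with 45, 267 and 11 tags, lay nearest to it. Gm8369, between Ms4a6c and Ms4a6b, had 26, 116 and 84 tags, a ratio of 5.44 (3.53 to 8.67), and its LPS level was 1.66 times the input. The interval of this ratio overlapped that of Ms4a6c (3.89 to 5.41).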
